A study of Homo sapiens with 21 samples.

Results

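The viewpoints compared here are an enhancer and a CTCF-binding site (CBS) at the boundary of the same locus, both read by Tri-C in induced macrophages (iMacs). The members were chosen as the pooled count files of the groups TriC Enhancer 96h and TriC CBS 96h, without the CTCF-AID subclone, at every locus present for both except 2. That gave 51 of the 53 loci and 6 of the 21 samples of the series, in 102 of its 371 files. All libraries came from BLaER1, a leukaemic B cell line of human origin with an oestrogen-inducible C/EBPα, read as 1 line without a second clone. In both groups the cells had been cultured for 96 h with 17β-estradiol, IL-3 and CSF-1, and the labels differ only in the viewpoints captured. The groups are separate libraries, so a difference of capture, library or sequencing cannot be told apart from the kind of viewpoint. The matching libraries at 0 h, from cells grown without these factors, served for the comparison with the B cell stage. Each group held 3 biological replicates, but each file pooled them. Every value below is therefore 1 value per locus and viewpoint, with an error from counting only, and every test compared 2 pooled libraries and not conditions, with no replicate check. Contact counts hold no marker levels, so the labelled cell state was not checked here. Of the 51 loci, 36 belong to genes of the macrophage programme (iMac loci) and 15 to genes of the B cell programme (B cell loci).

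Enhancers are DNA elements that bind transcription factors and act on promoters over a distance. CTCF is a zinc finger protein that stops the loop-extruding cohesin complex when cohesin meets the side of CTCF to which its motif points, and CBSs therefore often lie at the boundaries of topologically associating domains. Seen from such a boundary, contacts tend to run into 1 domain, and an enhancer inside a domain can have contacts to either side. Tri-C ligates and sequences several fragments together, so that each count here is a pair of fragments (reporters) seen with the viewpoint fragment in 1 read.

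The CCR1 locus shows what was captured. CCR1 encodes a chemokine receptor of monocytes and macrophages. The 2 fragments below are given because every CCR1 value rests on them, with the NlaIII recognition sites that bound each fragment in capitals (hg38, read from the reference genome).
CCR1 enhancer viewpoint (chr3:46089518-46089663, forward strand): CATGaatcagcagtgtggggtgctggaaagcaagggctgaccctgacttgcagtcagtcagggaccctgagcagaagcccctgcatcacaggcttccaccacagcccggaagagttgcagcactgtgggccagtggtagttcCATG
CCR1 CBS viewpoint (chr3:46378304-46378430, forward strand): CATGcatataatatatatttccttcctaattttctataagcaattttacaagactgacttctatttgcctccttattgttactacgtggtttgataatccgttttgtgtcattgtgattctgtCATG
The enhancer fragment lay in an intron of an unnamed annotated gene, 119 kb from the CCR1 start at chr3:46208313, and the CBS fragment lay in an intron of CCR5AS, 170 kb from it on the other side of the promoter.

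Over all 51 loci, 27 enhancer viewpoints were intergenic, 22 intronic and 2 exonic, against 18 intergenic, 30 intronic and 3 exonic CBS viewpoints. The enhancer lay a median of 66.7 kb from its promoter (17.0 to 588 kb), and the CBS lay a median of 150 kb from it (1.97 to 1067 kb). The promoter was nearer to the enhancer at 41 loci. The 2 viewpoints of a locus were a median of 140 kb apart (21.4 to 819 kb). The enhancer lay between promoter and CBS at 26 loci, the promoter lay between enhancer and CBS at 24, and CD38 was the only locus whose CBS lay between the others.

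Of the counts, those whose reporters both lay inside 1 Mb numbered 21161 to 97266 per locus from the enhancer (median 45161) and 12563 to 76248 from the CBS (median 40011). A further 37.3% of the counts on the chromosome (median, 19.6% to 52.1%) had a reporter beyond 1 Mb from the enhancer, against 30.9% (12.03% to 65.1%) from the CBS, and this share was higher from the enhancer at 41 of 51 loci. At 1 locus the enhancer files went against the listed viewpoint. It stays in the counts of loci below but is not described, and without it no count of loci below moved by more than 1.

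CTCF motif matches at the CBS viewpoints are given next because their strand can be set against the side on which the contacts lay. A core of 12 letters, which begins with CCA, ends with GGC and holds AG after any 2 letters and before any other 2, was searched on both strands and found within 1 kb of 12 of the 51 CBS viewpoints (23.5%), against 5.85% of the 71698 windows of 2001 bases tiled over the 51 regions. The motif is in capitals, in the direction in which it reads, with 9 bases of hg38 on either side, and those that point to higher coordinates come first.
BCL2 CBS (chr18:63016428-63016457, forward strand): gtcatgaagCCACTAGGGGGCaggggaaga
LMO2 CBS (chr11:33858018-33858047, forward strand): aggtgatggCCAGAAGGTGGCgctctgcat
TNFRSF1B CBS (chr1:12118781-12118810, forward strand): taagccttgCCAGCAGAGGGCgctagaggg
MXD1 CBS (chr2:69912150-69912179, forward strand): acttcatttCCAGTAGATGGCaccaaacac
IGLL1 CBS (chr22:23862279-23862308, forward strand): gccaggcatCCACTAGGTGGCactttctgc
MPEG1 CBS (chr11:59430102-59430131, reverse strand): ggcatatttCCACTAGGTGGCagcaacatt
IL10RA CBS (chr11:118053568-118053597, reverse strand): acatttcagCCACCAGAGGGCgctcaggtt
ATP8B4 CBS (chr15:50145570-50145599, reverse strand): gtaaaatttCCACTAGATGGCagtaacact
DNTT CBS (chr10:96340473-96340502, reverse strand): ttctgtcagCCATCAGAGGGCgctctgctg
CEBPA CBS (chr19:33407002-33407031, reverse strand): cagaactggCCAGAAGAGGGCagtgttgtc
PTPRC CBS (chr1:198699607-198699636, reverse strand): gtgtcagttCCAGCAGAGGGCgtctgcgag
ITGAX CBS (chr16:31460858-31460887, reverse strand): cacacattgCCACTAGGAGGCaccaattta
From the CBS viewpoint, the richer side at 96 h was the side to which the motif points at 11 of these 12 loci. At the 5 loci with a forward motif, between 65.8% and 73.0% of reporters lay on the right, with the highest share at MXD1. At IGLL1, which encodes a surrogate light chain of the pre-B cell receptor, the motif and 65.8% of the reporters pointed away from the enhancer. At 6 loci with a reverse motif, from 59.9% at PTPRC to 77.5% at MPEG1 lay on the left. ITGAX, the gene of the CD11c integrin, was the exception, with 47.0% on the left, to which its motif points. A match describes letters and was not tested as a site of binding.

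The first question was how far contacts reached from each kind of viewpoint. Reporters lay nearer to the enhancer than to the CBS of the same locus at 49 of 51 loci. Within this range the median reporter distance was 101 kb from the enhancer (44.5 to 234 kb over the loci) and 191 kb from the CBS (71.7 to 380 kb). The distance from the CBS over that from the enhancer had a median of 2.18 at the iMac loci and 1.53 at the B cell loci. MPEG1, the gene of the pore-forming protein perforin-2, had the largest such ratio (4.06), with 54.3 kb from its enhancer and 220 kb from its CBS. At IGLL1 and BCL11A, a lymphoid transcription factor gene, the order was turned, with 149 and 220 kb from the enhancers against 102 and 172 kb from the CBSs.

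Reach was tested as the share of reporters more than 100 kb away among those 10 kb to 1 Mb from the viewpoint. This share was a median of 50.6% from the enhancers (27.8% to 74.1%) and 70.2% from the CBSs (33.2% to 83.7%). At these depths nearly any difference passes the test, so a locus was called only with an odds ratio of at least 1.5 as well as an adjusted p under 0.05 (two-sided Fisher's exact test, Benjamini-Hochberg over the loci measured). Reach was lower from the enhancer at 40 of 51 loci (78.4%) and higher at 2 (3.92%). The median log2 odds ratio, enhancer over CBS, was -1.19. All 10 signalling and other myeloid loci, 11 of 13 loci of myeloid surface and secreted proteins and 8 of 13 loci of myeloid transcription regulators were lower. So were 3 of 4 loci of B lineage transcription factors, 5 of 7 loci of the B cell receptor and recombination and 3 of 4 other B cell loci.

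NFKBIZ, which encodes a nuclear IκB protein of inflammatory gene induction, had the lowest odds ratio. Its enhancer had 46.1% of reporters beyond 100 kb (95% Clopper-Pearson interval 45.8% to 46.4%), against 82.3% (82.0% to 82.6%) from its CBS, a log2 odds ratio of -2.44 (95% interval -2.48 to -2.41). MXD1, which encodes a partner of MAX that opposes MYC, had 39.9% from the enhancer and 76.2% from the CBS. MPEG1 had 35.9% and CEBPA, the endogenous gene of the converting factor, 35.8% from the enhancer, against 72.9% and 71.6% from the CBS. LYN, a Src family kinase gene, had 37.0% from the enhancer and 70.9% from the CBS. These 5 loci had log2 odds ratios between -2.44 and -2.05.

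The 2 loci with a longer reach from the enhancer were FOSL2 and IGLL1. FOSL2, an AP-1 subunit gene whose enhancer lay 437 kb away, had 73.8% of reporters beyond 100 kb from the enhancer and 63.9% from the CBS (log2 odds ratio 0.67, 0.63 to 0.70). At a limit of 200 kb the order at FOSL2 turned, with a log2 odds ratio of -0.34. IGLL1 had 61.6% from the enhancer and 51.4% from the CBS (log2 odds ratio 0.60, 0.57 to 0.64). TRPS1, the gene of a GATA-type repressor, and RORB, a nuclear receptor gene, were nearest to 0 with log2 odds ratios of 0.03 (-0.01 to 0.06) and -0.09 (-0.12 to -0.06). CCR1 also had like shares from both ends, 71.4% from the enhancer and 72.9% from the CBS.

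**Figure D1:**
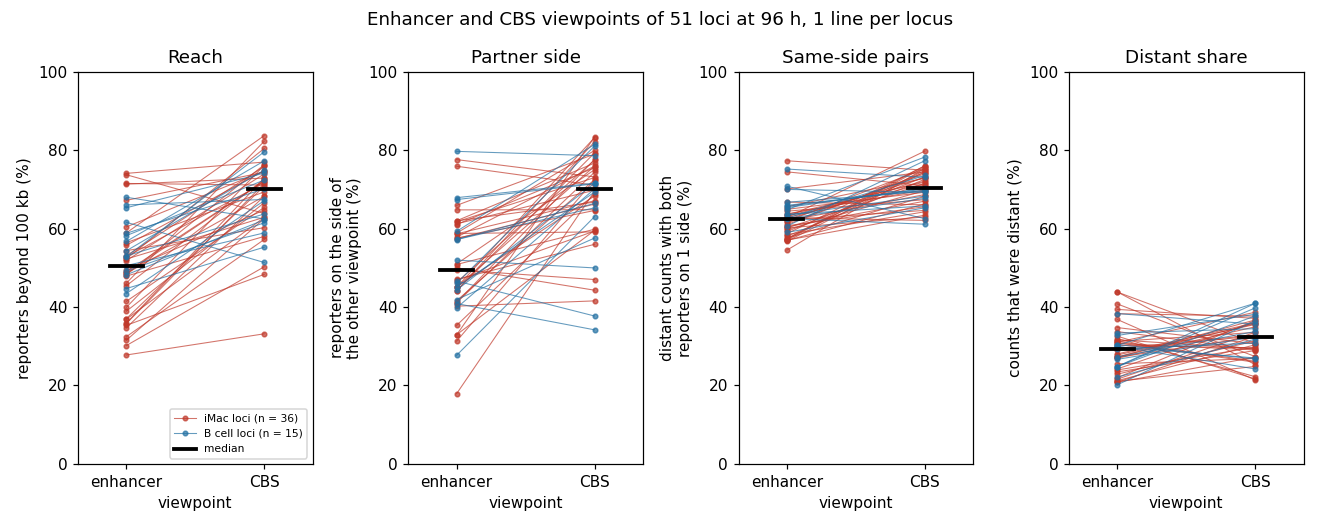
Shares at 96 h, in percent on the vertical axes, from the enhancer viewpoint (left) and the CBS viewpoint (right) of 51 loci, with 1 line per locus, red for iMac and blue for B cell loci, and black bars for medians. Median reach was 50.6% from the enhancer and 70.2% from the CBS, and the median share on the side of the other viewpoint was 49.5% from the enhancer and 70.1% from the CBS.

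The second question was to which side contacts ran. From the enhancer, a median of 49.5% of reporters lay on the side of the CBS (17.9% to 79.7%), close to an even split. From the CBS, a median of 70.1% lay on the side of the enhancer (34.2% to 83.4%). The share was lower from the enhancer at 29 of 51 loci (56.9%) and higher at 0 (0%), and the median log2 odds ratio was -0.96. The lower loci were 22 of the 36 of the macrophage programme and 7 of the 15 of the B cell programme, and they included 10 of 13 surface and secreted protein loci. With no fold minimum, 8 loci were higher from the enhancer.

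DDIT4, the gene of an mTORC1 inhibitor, and CD14, the gene of a lipopolysaccharide co-receptor, differed most. At DDIT4, 17.9% (17.6% to 18.2%) of enhancer reporters lay towards the CBS, against 69.5% (69.0% to 69.9%) of CBS reporters towards the enhancer, a log2 odds ratio of -3.38 (-3.43 to -3.34). At CD14 these shares were 32.9% from the enhancer and 83.4% from the CBS. SRGN, which encodes the granule proteoglycan serglycin, had 45.0% from the enhancer and 83.3% from the CBS. KLF4, a myeloid zinc finger factor gene, had 44.1% from the enhancer and 82.2% from the CBS, and CREG1, a lysosomal glycoprotein gene, had 31.3% and 72.5% in that order. EPS8, an actin regulator gene, was near 0, with 58.8% from the enhancer and 59.2% from the CBS (log2 odds ratio -0.02, -0.06 to 0.01).

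At 60% or more on 1 side, 19 enhancer viewpoints and 41 CBS viewpoints were one-sided, a description without a test. For 39 of the CBS viewpoints at least 60% lay towards the enhancer, and for 2, CD38 and IGLL1, at least 60% lay away from it. For the enhancer viewpoints, 12 had at least 60% towards the CBS and 7 had at most 40%. CCR1 and IL7R, the gene of the interleukin-7 receptor, were among the most one-sided enhancers, with 77.6% and 79.7% of enhancer reporters towards the CBS, against 73.2% and 78.6% of CBS reporters towards the enhancer.

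The position of the promoter went with the side of the enhancer's contacts. The richer side was the promoter's side for 35 of 51 enhancer viewpoints and 46 of 51 CBS viewpoints. Seen from the CBS, promoter and enhancer lay on the same side at every locus but CD38. The value of 46 therefore mostly repeats the preference for the enhancer's side and says little about the promoter itself. Where the promoter lay between the elements, a median of 58.3% of enhancer reporters lay towards both promoter and CBS. Where the enhancer lay between promoter and CBS, a median of 55.0% lay towards the promoter and 45.0% towards the CBS. From the CBS, these 2 layouts had medians of 72.8% and 69.1% towards the enhancer and promoter.

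The side preference of the CBS viewpoints was larger beyond 100 kb than nearer to the viewpoint. At 10 to 25 kb, 7.84% of enhancer reporters lay on the CBS side and 6.99% on the other (medians over the loci), against 4.49% of CBS reporters on the enhancer side and 4.86% on the other. At 100 to 200 kb these values were 7.95% and 8.74% from the enhancer, against 12.9% and 4.37% from the CBS. The ratio of the sides at that distance had a median of 0.87 from the enhancer and 3.07 from the CBS. At 200 to 400 kb it was 0.88 from the enhancer and 3.11 from the CBS, and at 400 kb to 1 Mb it was 1.02 and 2.39 in that order. In each class out to 100 kb the enhancers held the larger share of reporters, and in each class from there to 1 Mb the CBSs did. The class of 400 kb to 1 Mb held 15.5% from the enhancer and 22.3% from the CBS, with counts beyond 1 Mb left out.

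**Figure D2:**
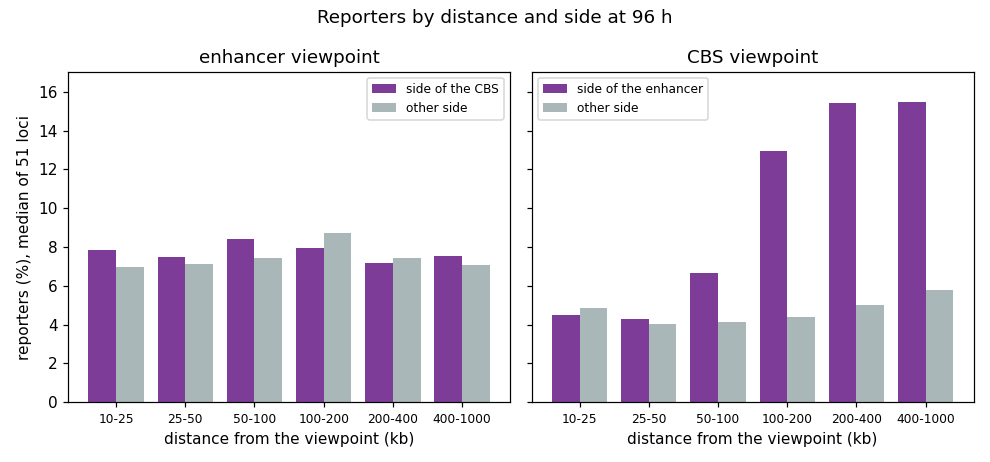
Median share of reporters over 51 loci (vertical axis, percent) in 6 classes of distance from the viewpoint (horizontal axis, kb), on the side of the other viewpoint (purple) and on the other side (grey), from enhancer (left) and CBS (right) viewpoints at 96 h. The sides differ little from the enhancer, and from the CBS they reach 12.9% and 4.37% at 100 to 200 kb.

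Three-way reads show whether the 2 reporters of a read lay on the same side. A count was distant where viewpoint and reporters were all more than 10 kb apart. Distant counts had both reporters on 1 side in a median of 62.6% from the enhancer and 70.3% from the CBS. The share was lower from the enhancer at 20 of 51 loci (39.2%) and higher at 0 (0%), and the median log2 odds ratio was -0.41. The 20 were 17 iMac loci and 3 B cell loci (BLK, MYB and DNTT). SRGN had the lowest odds ratio, with 54.5% (53.3% to 55.7%) from the enhancer and 75.4% (74.6% to 76.1%) from the CBS. NFKBIZ had 57.4% from the enhancer and 76.1% from the CBS, KDM7A, a histone demethylase gene, 57.1% and 75.7%, KLF4 62.8% and 79.8%, and CD14 56.8% and 74.6%, each with the enhancer first. PELI1, the gene of an E3 ligase of Toll-like receptor signalling, was nearest to 0, with a log2 odds ratio of 0.04 (-0.03 to 0.12). If the reporters of a read had been drawn separately, the medians would be 51.5% from the enhancer and 58.0% from the CBS, and the measured share lay above that value at all 51 loci from either viewpoint, by a median of 9.72 percentage points from the enhancer and 10.7 from the CBS.

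The share of counts that were distant differed less. It was a median of 29.4% from the enhancer (20.2% to 43.9%) and 32.4% from the CBS (21.4% to 41.0%), and it was higher from the enhancer at 6 of 51 loci (11.8%) and lower at 13 (25.5%). The 6 were the iMac loci TRPS1, RBPJ, RBM47, KLF6, ITGAX and GAS7. TRPS1 had 43.9% from the enhancer and 25.3% from the CBS (log2 odds ratio 1.20, 1.16 to 1.25). RBPJ, the gene of the Notch effector, had 36.8% and 21.4%, and RBM47, an RNA-binding protein gene, 40.8% and 27.4%, in the same order. Of the 13 lower loci, 7 were iMac and 6 B cell loci. They were led by BLK, a B cell Src family kinase gene, with 20.2% from the enhancer and 36.5% from the CBS (log2 odds ratio -1.19, -1.23 to -1.15), and IGLL5, an immunoglobulin lambda-like gene, with 24.8% and 40.9%. MXD1 and PAX5, the B cell identity factor gene, had log2 odds ratios of -1.03 and -0.88, and IGLL1, between them, had 24.8% from the enhancer and 39.8% from the CBS. CITED2 and CCL2 were nearest to 0 with 0.04 each. Within the 4 loci of B lineage transcription factors, PAX5 alone was called, as were BCL2 among the 4 other B cell loci and, as lower, PELI1 among the signalling loci.

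The third question was which viewpoint met the target promoter more. A promoter count had 1 reporter in the 12 kb window at the promoter and the other distant, and it was measured at the 46 loci whose promoter lay at least 16 kb from both viewpoints. At CD14, MXD1, KLF4 and BCL11A the CBS lay nearer than that, and at CITED2 it lay beyond 1 Mb. Promoter counts made up a median of 1.89% of counts from the enhancer (0.22% to 6.32%) and 1.27% from the CBS (0.17% to 5.11%). The share was higher from the enhancer at 24 of 46 loci (52.2%) and lower at 5 (10.9%), and the median log2 odds ratio was 0.83. Of 32 iMac loci, 21 were higher and 0 lower from the enhancer (median log2 odds ratio 1.03), and of 14 B cell loci, 3 were higher and 5 lower (median 0.30). Among the iMac loci, 8 of 10 signalling loci, 8 of 12 surface and secreted protein loci and 5 of 10 transcription regulator loci were higher. The difference between the classes was not tested, since loci are not replicates.

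The promoter of RBM47 took 931 of 34250 counts from the enhancer (2.72%, 2.55% to 2.90%) and 116 of 31710 from the CBS (0.37%, 0.30% to 0.44%), a log2 odds ratio of 2.92 (2.64 to 3.20, adjusted p = 3.0e-146, Fisher's exact test). RBPJ had 2.25% from the enhancer and 0.32% from the CBS, FRAT2, a Wnt pathway gene, 2.53% and 0.40%, ITGAX 2.14% and 0.35%, and TNFRSF1B, the gene of TNF receptor 2, 3.02% and 0.70%, each with the enhancer first. At FRAT2, RBM47, RBPJ and ITGAX the CBS lay from 106 to 479 kb from the promoter and the enhancer from 52.6 to 246 kb. The CCR1 promoter had the highest share of all from an enhancer, with 4985 of 78825 counts (6.32%, 6.16% to 6.50%), against 2216 of 74512 (2.97%, 2.85% to 3.10%) from the CBS, a log2 odds ratio of 1.14 (1.07 to 1.21). IL7R, IRAG2 and RORB were the B cell loci higher from the enhancer, with log2 odds ratios of 1.51, 0.83 and 0.82.

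The 5 promoters met more from the CBS were all of B cell loci. CD38, an ectoenzyme gene whose enhancer lay 377 kb and whose CBS lay 48.0 kb from the promoter, had 99 of 31928 counts (0.31%, 0.25% to 0.38%) from the enhancer and 741 of 37497 (1.98%, 1.84% to 2.12%) from the CBS, a log2 odds ratio of -2.69 (-2.99 to -2.39). BCL2, the gene of an inhibitor of apoptosis, had 1.116% from the enhancer and 3.44% from the CBS, although the enhancer was nearer, at 220 kb against 303 kb. EBF1, a B lineage transcription factor gene, had 0.22% from the enhancer and 0.51% from the CBS, at distances of 588 kb and 934 kb. MYB, a progenitor transcription factor gene, had a log2 odds ratio of -0.82 (-1.01 to -0.63). SRGN and ATP8B4, a phospholipid flippase gene, were nearest to 0. SRGN had 4.92% from the enhancer and 5.11% from the CBS (log2 odds ratio -0.06, -0.16 to 0.04), the highest share of any CBS viewpoint.

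**Figure D3:**
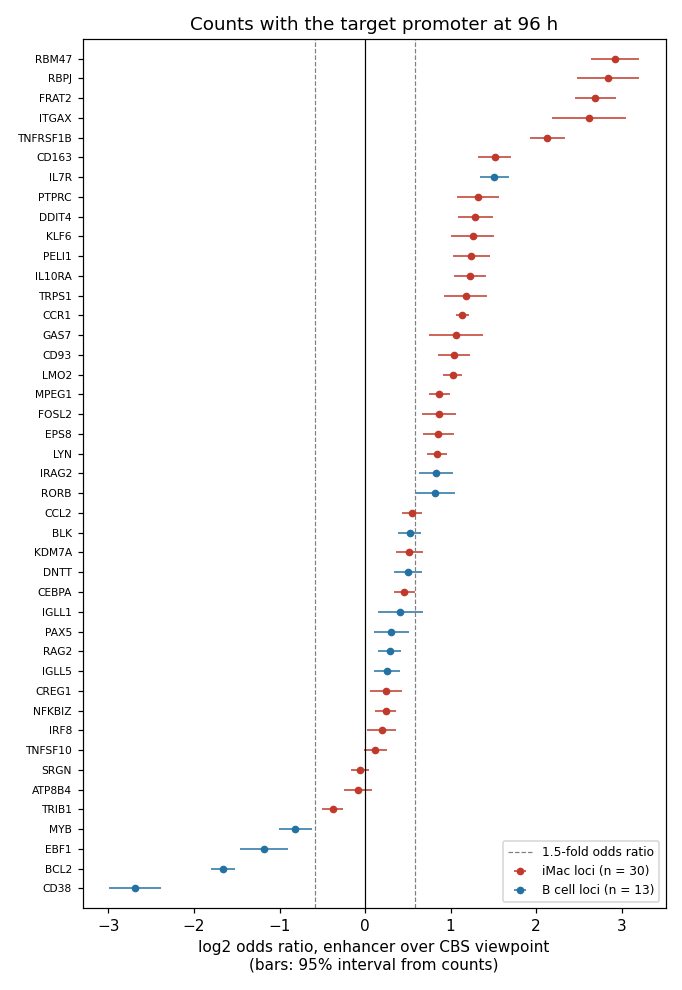
Log2 odds ratio of promoter counts, enhancer over CBS viewpoint, at 96 h (horizontal axis) for 43 of the 46 measured loci, red for iMac and blue for B cell loci, with 95% intervals from counts and dashed lines at the 1.5-fold limit. The values run from -2.69 at CD38 to 2.92 at RBM47, and the 4 plotted loci under the lower limit are all B cell loci.

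Distances to the promoter differ between the viewpoints, so each promoter window was also set against its mirror, the window at the same distance on the other side of the viewpoint. From the enhancer, 32 of 51 promoters were higher than their mirror and 3 lower, where 32.2% of all 12 kb windows out to 600 kb were higher (exact binomial test, ratio of at least 1.5; the same share is lower, since each window is the mirror of another). From the CBS, 37 of 46 were higher and 2 lower, where 39.2% of all windows were. The median log2 ratio was 1.07 from the enhancer and 1.78 from the CBS. By class, 21 of 36 iMac promoters were higher from the enhancer and 2 lower (median 0.73). Of 15 B cell promoters, 11 were higher and 1 lower (median 1.23), so the classes stood the other way round than in the promoter shares. FOSL2 had 600 counts at the promoter and 14 at its mirror from the enhancer, 437 kb away, and CCR1 had 4985 and 546. From the CBS, the KLF6 promoter, 872 kb away, had 142 counts and 1 at its mirror, and that of SRGN had 1898 and 127. BCL11A and CEBPA were among the promoters lower than their mirror from the enhancer, and ITGAX and PELI1 were those from the CBS. At CEBPA the enhancer had 1286 counts at the promoter and 2024 at the mirror. The sides of a CBS viewpoint differ as a whole, as given above, and the mirror comparison contains that difference.

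A comparison on 1 side, added after these results were seen, set each window against the mean of the windows 18 kb to either side of it. From the enhancer, 11 of 44 promoters were higher than their flanks and 2 lower, where 6.05% of all windows were higher and 8.41% lower. Among them, 10 of 30 iMac promoters were higher and 1 lower, and 1 of 14 B cell promoters was higher and 1 lower. The mirror and flank comparisons therefore order the classes differently. From the CBS, 8 of 44 promoters were higher and 2 lower, where 6.83% were higher and 9.49% lower. The window of the other viewpoint stood out more often from the enhancer. From the enhancer, the CBS window was higher than its flanks at 23 of 45 loci and lower at 1, with a median log2 ratio of 0.74. From the CBS, the enhancer window was higher at 9 of 45 and lower at 3, with a median of -0.02. RBM47 had 221 counts at the CBS window and a flank mean of 54.0 from its enhancer, and KLF6 had 959 and 315. CCR1, NFKBIZ, RAG2, KLF6 and FOSL2 were higher in both directions. At CCR1 the enhancer viewpoint had 2448 counts at the CBS and a flank mean of 1110, and the CBS viewpoint had 2484 counts at the enhancer and a flank mean of 856. ITGAX was the exception from the enhancer, with 217 counts at the CBS window and a flank mean of 490.

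**Figure D4:**
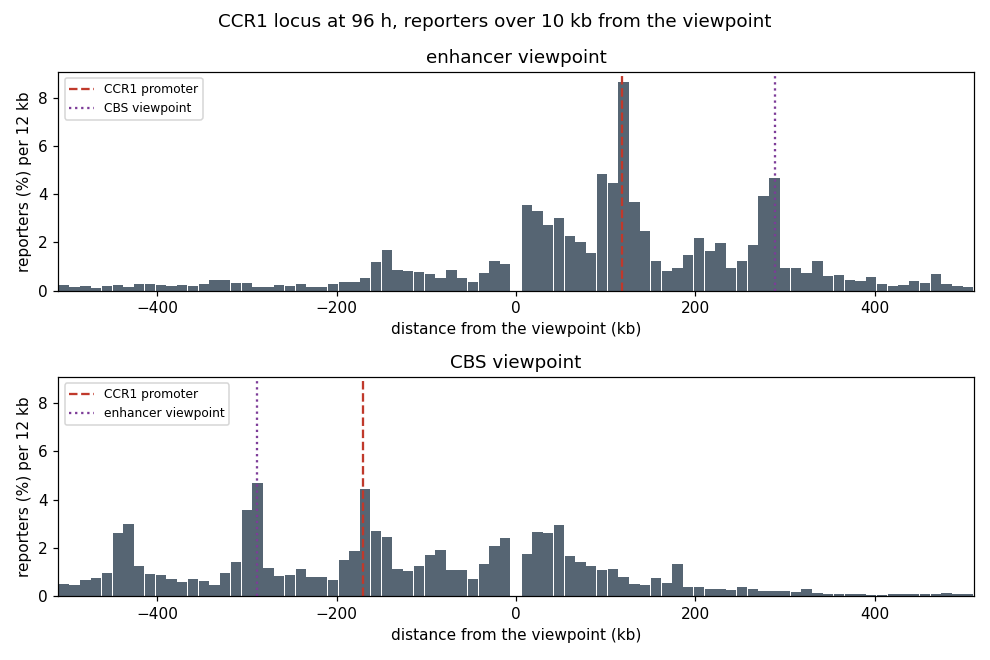
Share of reporters in 12 kb steps (vertical axis, percent) by distance from the viewpoint (horizontal axis, kb) at CCR1 at 96 h, from the enhancer (top) and the CBS (bottom). Steps within 10 kb of the viewpoint hold no or few reporters by definition, the dashed line is the CCR1 promoter, 119 kb from the enhancer and 170 kb from the CBS, and the dotted line is the other viewpoint, 289 kb away. The tallest step from the enhancer is the one at the promoter, and the tallest from the CBS is the one at the enhancer.

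The same 2 elements at the same distance could be read from either end. A joining count had 1 reporter in the 12 kb window at the other viewpoint and the other reporter distant, so counts with a nearer second reporter are left out. The share of such counts was a median of 1.34% from the enhancer (0.17% to 4.22%) and 0.95% from the CBS (0.21% to 5.30%). It was higher from the enhancer at 15 of 51 loci (29.4%) and lower at 2 (3.92%), and the median log2 odds ratio was 0.31. The 15 held 13 iMac loci and 2 B cell loci, and the 2 were the B cell loci BCL11A and CD38. FRAT2 had 1.17% (1.08% to 1.26%) from the enhancer and 0.39% (0.33% to 0.46%) from the CBS, a log2 odds ratio of 1.59 (1.33 to 1.85, adjusted p = 5.9e-40, Fisher's exact test). EPS8, IL10RA, the gene of the interleukin-10 receptor, CD163, a haemoglobin scavenger receptor gene, and TNFRSF1B followed with log2 odds ratios of 1.31, 1.16, 0.95 and 0.93. At BCL11A the shares were 0.26% from the enhancer and 0.45% from the CBS (log2 odds ratio -0.82, -1.17 to -0.48). NFKBIZ and MXD1 were nearest to 0. NFKBIZ had 1.65% from the enhancer and 1.69% from the CBS (log2 odds ratio -0.03, -0.18 to 0.11). Both denominators are each viewpoint's own total, which differ in reach as given above. Of the 15, 12 had the enhancer between promoter and CBS.

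Counts that joined enhancer, promoter and CBS in 1 read were rare, a median of 0.093% from the enhancer and 0.066% from the CBS over the 32 loci with at least 20 such counts. They were called higher from the enhancer at 7 of 32 loci (21.9%), all iMac loci, and lower at 0 (0%), and the median log2 odds ratio was 0.44. The 7 include KLF6 and TNFRSF1B, which reached 20 counts only through the enhancer library. CEBPA had 69 counts from the enhancer and 22 from the CBS (log2 odds ratio 1.58, 0.89 to 2.26, adjusted p = 4.7e-05, Fisher's exact test). LYN had 80 from the enhancer and 38 from the CBS, LMO2, a haematopoietic LIM adaptor gene, 50 and 45, TNFSF10, the gene of TRAIL, 102 and 57, and SRGN 129 and 104, each with the enhancer first and with fewer counts in all from the enhancer at LMO2 and SRGN. TNFRSF1B had 28 from the enhancer and 11 from the CBS. KLF6 had 23 from the enhancer and 0 from the CBS, at least 2.04-fold higher against a floor of 3 counts in the CBS library. It passed the minimum of 20 counts only through the enhancer library, and its log2 odds ratio interval spanned 0 (-0.40 to 7.68). The KLF6 call therefore carries no weight, and the TNFRSF1B call rests on a minimum passed only through the library where it is high. CCR1 had the most such counts, with 301 from the enhancer and 210 from the CBS (log2 odds ratio 0.44, 0.18 to 0.69), below the 1.5-fold limit. TRIB1 and BLK were nearest to 0, with 30 counts from the enhancer and 23 from the CBS at TRIB1. With all counts divided by 3, 0 loci were called. With windows of 30 kb, 6 loci were lower from the enhancer, and the log2 odds ratio at SRGN turned to -0.57.

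The last question was whether these differences were there at the B cell stage. At 0 h, promoter counts were higher from the enhancer at 26 of 46 loci and lower at 5, close in number to 96 h, but the classes stood the other way round. The median log2 odds ratio of promoter counts was 1.03 at 96 h and 0.61 at 0 h at the iMac loci, and 0.30 at 96 h and 1.32 at 0 h at the B cell loci. The difference of the log2 odds ratios, 96 h minus 0 h, had a count interval that excluded 0 and a size of at least 1.5-fold at 26 of 46 loci. Among 32 loci of the macrophage programme it was positive at 14 and negative at 0, and among 14 of the B cell programme it was negative at 12 and positive at 0. This description has no p, since the intervals leave out the spread between replicates.

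EBF1 moved most. Its promoter took 0.22% of enhancer counts at 96 h and 0.63% at 0 h, and 0.51% of CBS counts at 96 h and 0.17% at 0 h, so that the log2 odds ratio was -1.18 at 96 h and 1.90 at 0 h (difference -3.08, -3.52 to -2.64). MYB also changed sign, with -0.82 at 96 h and 1.13 at 0 h. IRAG2, a lymphoid membrane protein gene, had 2.66% from the enhancer at 96 h and 5.17% at 0 h, and 1.51% from the CBS at 96 h and 0.62% at 0 h (difference -2.28, -2.62 to -1.94). RAG2, a subunit of the V(D)J recombinase, had 2.505% at 96 h and 4.16% at 0 h from the enhancer, and 2.06% and 1.88% from the CBS (difference -0.89, -1.07 to -0.71). CD38 and RORB were the B cell loci not past the limit, and CD38 was lower from the enhancer at both times, with -2.69 at 96 h and -2.57 at 0 h. Among the iMac loci, PTPRC, the gene of the CD45 phosphatase, moved most, with a log2 odds ratio of 1.32 at 96 h and 0.01 at 0 h (difference 1.31, 0.94 to 1.68). FOSL2 had 0.86 at 96 h and -0.43 at 0 h, and KDM7A had 0.52 at 96 h and -0.65 at 0 h. The CCR1 promoter took 6.32% of enhancer counts at 96 h and 1.48% at 0 h, and 2.97% of CBS counts at 96 h and 1.33% at 0 h (difference 0.98, 0.84 to 1.124). NFKBIZ had 0.24 at 96 h and 0.28 at 0 h (difference -0.04, -0.28 to 0.20), and its promoter share was higher at 96 h from both viewpoints, 2.47% and 2.09% at 96 h against 1.15% and 0.94% at 0 h, the enhancer first.

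Differences in side and reach were present at 0 h too, where partner side was lower from the enhancer at 27 loci and higher at 4, and reach was lower at 32 and higher at 0. The share on the side of the other viewpoint had a median log2 odds ratio of -0.96 at 96 h and -0.69 at 0 h, and its difference between the times passed the limit as negative at 18 of 51 loci and positive at 4. CD14 moved most among the 18, with 32.9% at 96 h and 38.7% at 0 h from the enhancer, and 83.4% at 96 h and 71.3% at 0 h from the CBS (difference -1.38, -1.43 to -1.32). NFKBIZ followed, with 58.9% at 96 h and 59.0% at 0 h from the enhancer, and 79.9% at 96 h and 62.4% at 0 h from the CBS. CCR1 went the other way, with 77.6% at 96 h and 51.5% at 0 h from the enhancer, and 73.2% at 96 h and 73.5% at 0 h from the CBS (difference 1.73, 1.69 to 1.76). LMO2, IL10RA and RORB were the other loci past the limit on that side. Reach had a median log2 odds ratio of -1.19 at 96 h and -0.83 at 0 h. Its difference was negative past the limit at 16 loci, all of the macrophage programme, and positive at FOSL2, IRAG2 and IL7R. At IRAG2, 49.2% of enhancer reporters lay beyond 100 kb at 96 h and 27.7% at 0 h, and at MPEG1 35.9% at 96 h and 51.3% at 0 h.

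**Figure D5:**
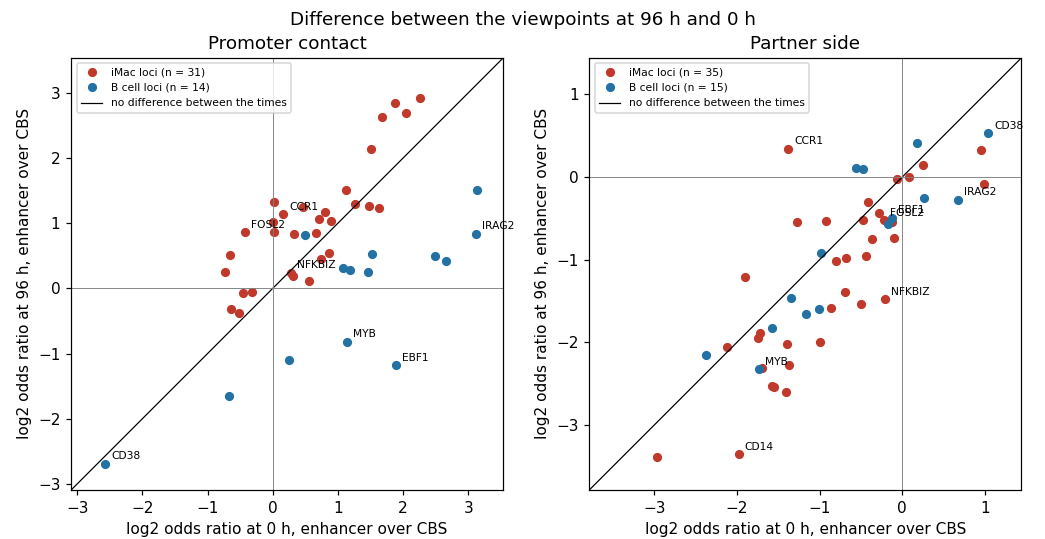
Log2 odds ratio, enhancer over CBS, at 96 h (vertical axis) and 0 h (horizontal axis) for promoter counts (left) and for the share of reporters on the side of the other viewpoint (right), 1 point per locus, without the locus whose listed viewpoint the files go against, red for iMac and blue for B cell loci. For promoter counts no B cell locus lies past the limit above the diagonal and 12 lie past it below, with EBF1 at -1.18 at 96 h and 1.90 at 0 h.

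IRF8, a myeloid lineage factor gene, had 41.5% of reporters beyond 100 kb from the enhancer and 65.4% from the CBS. Its promoter share did not pass the limit (1.58% from the enhancer and 1.38% from the CBS). LMO2 had 31.5% of reporters beyond 100 kb from the enhancer and 62.6% from the CBS, and a promoter share of 3.997% from the enhancer and 2.01% from the CBS (log2 odds ratio 1.02, 0.91 to 1.14). KDM7A had 34.7% beyond 100 kb from the enhancer and 68.3% from the CBS, with promoter shares of 2.41% and 1.70% in that order (log2 odds ratio 0.52, 0.36 to 0.68). TRIB1, a pseudokinase gene, had 65.9% of enhancer reporters towards the CBS and 79.0% of CBS reporters towards the enhancer, and a promoter share of 1.36% from the enhancer and 1.75% from the CBS (log2 odds ratio -0.38, -0.50 to -0.25), under the limit. MYB, the progenitor factor, had 46.1% of enhancer reporters towards the CBS, against 81.1% of CBS reporters towards the enhancer. RAG2 had the highest reciprocal share of the B cell loci, 3.95% from the enhancer and 5.04% from the CBS (log2 odds ratio -0.37, -0.47 to -0.27), also under the limit.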

How the data were processed

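In Tri-C, chromatin cut with NlaIII was ligated and enriched for the viewpoints, in 3 biological replicates per group, each with 3 technical replicates per the labels. The authors mapped reads to hg38 with CapCruncher, pooled the replicates and kept reads in which 2 or more reporters shared the viewpoint's chromosome. The deposited values are counts of each pair of reporter fragments seen with the viewpoint. Every pair of a read with several reporters was counted, so counts are not independent and intervals cover counting error only. All 824581 fragments of the captured regions listed in the files had NlaIII sites at both ends in the hg38 reference.

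Viewpoints were placed at the listed capture oligonucleotide, which lay within 1 kb of the centre of the reporter signal at 101 of 102 viewpoints. Promoters were the canonical transcript starts of GENCODE. Reporters within 10 kb were left out, the range was 1 Mb and windows spanned 12 kb. Fisher's exact test per locus was two-sided, with Benjamini-Hochberg adjustment, calls at an adjusted p under 0.05 and an odds ratio of at least 1.5, a pseudocount of 0.5 in log2 odds ratios and 95% intervals, exact (Clopper-Pearson) for shares. Windows needed at least 20 counts. Depth is in the opening. Named loci were, first, 9 loci named in the study's text, of which CCR1, NFKBIZ, TRIB1 and RAG2 are those of its Tri-C text. Added to them were the 5 called loci of largest log2 odds ratio in each direction of a comparison (50 counts for windows). The 2 nearest to 0 and any locus alone in its class were also named. Some loci that this rule names are counted but not reported here by name. The loci, classes, lists and tests were chosen with earlier results of these data known. The per-locus tests and the mirror test were checked on simulated independent counts with large planted differences, which the counts here need not resemble. Triple counts were simulated but not held to the pass condition. The flank comparison and the difference between 96 h and 0 h were not simulated. Analyses ran in Python 3.11.15, NumPy 2.4.6, pandas 2.3.3, SciPy 1.17.1 and matplotlib 3.10.9. Alternatives varied the exclusion, range, limit, windows, denominators, counting and positions, as the closing section gives.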

Additional observations from a re-analysis of the deposited data

Results flagged for a closer look

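The difference between the 2 viewpoints of a locus was itself different at 96 h and 0 h at many loci, by a count interval of the difference of log2 odds ratios and a size of at least 1.5-fold, which is not a test across replicates. For promoter counts the odds ratio, enhancer over CBS, was higher at 96 h than at 0 h at 14 iMac loci and lower at 12 B cell loci. For the share of reporters on the side of the other viewpoint it was lower at 96 h at 15 iMac loci and 3 B cell loci, and higher at 3 iMac loci and 1 B cell locus (RORB). For reach it was lower at 96 h at 16 iMac loci, and higher at 1 iMac locus (FOSL2) and 2 B cell loci (IRAG2 and IL7R). The causes were not tested.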

How the results depend on the processing

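Of 190 counts of loci or promoters recomputed under the alternatives, 157 stayed within 1.5 times of the reported count and 33 did not. Of 1111 other values, nearly all of single loci, 1013 were classed as unchanged, 33 were no longer called and 62 were newly called. At 3, a locus called at first turned direction. The unchanged values include any turn of direction at a locus not called at first. They also include the shares of all windows higher than their mirror, which were not checked for change. The causes were not tested, except that settings which leave out counts test fewer of them. With an exclusion of 5 kb, 1 locus was higher from the enhancer in partner side. With one of 20 kb, 1 locus each was higher in reach, partner side and same-side pairs, 20 were lower in distant share, and 1 promoter from the enhancer and 4 from the CBS were lower than their mirror. With each fragment pair counted once, 1 locus was higher in reach and 1 lower in reciprocal contact. With all counts divided by 3, 1 was lower in reciprocal contact and 0 were higher in triple counts. With no fold minimum, 8 were higher in partner side, 5 higher and 43 lower in same-side pairs, 19 higher and 32 lower in distant share, 32 higher and 10 lower in reciprocal contact, and 5 promoters from either viewpoint were lower than their mirror. With a range of 500 kb, 1 was higher in reach, 2 higher in partner side and 4 lower in reciprocal contact. With a limit of 50 kb or 200 kb, 1 was higher in reach, and at 200 kb the log2 odds ratio turned to -0.34 at FOSL2 and 0.11 at RAG2. With windows of 7.5 kb, 4 were lower in reciprocal contact, 4 higher in triple counts and 4 promoters from the CBS lower than their mirror. With windows of 30 kb, 4 were lower in reciprocal contact, 6 lower in triple counts, with SRGN at -0.57, and 0 promoters from the enhancer lower than their mirror. As a share of distant counts, 1 was lower in reciprocal contact. Per fragment in the window, 0 promoters from the enhancer were lower than their mirror.

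Leaving out the 1 locus whose enhancer files go against the listed viewpoint was chosen after seeing the data, as were the comparison with flanking windows and that of reach with 0 h. Without that locus, 39 loci were lower in reach, 23 promoters were higher and 14 loci were higher in reciprocal contact from the enhancer. No paired analysis was possible because each file pools the 3 replicates, and for the same reason no replicate could be left out. Depth limited the triple counts most, which reached 301 at CCR1 and were 0 from the CBS at KLF6.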

Other observations

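The CTCF core was also found within 1 kb of 6 enhancer viewpoints, those of CCR1, CD93, EBF1, IGLL1, IGLL5 and MYB. The richer side of the enhancer's reporters was the side to which the motif points at IGLL1 and IGLL5, with 59.1% and 72.3% there, and it was the other side at CCR1, CD93, EBF1 and MYB. At CCR1, 22.4% of the enhancer's reporters lay on the side to which the match points. The regions of 2 pairs of loci came close to each other on the chromosome. The nearest viewpoints of IGLL1 and IGLL5 were 796 kb apart and those of DNTT and FRAT2 741 kb apart, so that within 1 Mb these pairs shared some reporter fragments and are not independent loci.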
